A study of Caenorhabditis elegans with 8 samples.

Results

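DNA repair and damage response genes were followed in ageing wild-type worms as a set of 34 named genes, selected by gene symbol and covering break repair, mismatch repair, excision repair, translesion synthesis and checkpoint signalling. Of the 34 genes, 33 had a probe with an assigned symbol among 26761 tested probes, pms-2 (the mismatch repair partner of mlh-1) was not analysed here, and rad-54 was read from the probe of rad-54.L, its present name. Transcript levels were read on 8 Affymetrix Gene 1.1 ST arrays, 1 for each RNA sample from a synchronized population of wild type, N2 Bristol worms. Every population lived at 20 °C on OP50 bacteria, was given M9 buffer and received no other treatment, and how many worms were pooled is not stated in the labels. There were 3 samples of adults at day 1, 3 at day 6 and 2 at day 12, with age as the only difference that the labels give. The replicates are called biological in the labels, and nothing states that they were separate cultures, so p-values measure the spread between these samples.

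Cells meet broken, mismatched and chemically damaged DNA with separate pathways. Breaks are repaired by homologous recombination, in which RAD-51 filaments search for an intact copy, or by end joining, in which the Ku proteins hold the ends for ligation. Mismatch repair removes copying errors, base excision and nucleotide excision repair cut out single damaged bases and bulky lesions, and the ATM and ATR kinases report damage to the cell cycle and to the p53-like protein CEP-1. In adult C. elegans the somatic cells no longer divide, while the germline and the embryos inside the mother do, and a whole-animal sample holds all of these together. In such bulk samples fewer cells of a type and less RNA per cell cannot be told apart.

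The repair genes had mean signals above the floor of the arrays, and most of them moved little. Values below are log2 signal, differences are later day minus earlier day ± SE, and a call is an adjusted p under 0.05 from limma over all tested probes. Mean signal over the 8 arrays ran from 4.73 for rfs-1 to 8.55 for exo-3, and all 33 genes exceeded 3, a level below which 63.2% of tested probes lay and which is treated as dim. Their median absolute difference was 0.29 from day 1 to day 6, 0.23 from day 1 to day 12 and 0.19 from day 6 to day 12. Over all probes within that brightness range it was 0.28, 0.34 and 0.25, so only the first was like the background. The median SD among arrays of a day was 0.13 at day 1, 0.08 at day 6 and 0.13 at day 12. Pearson's r across probes, which are not independent replicates, was 0.984 to 0.990 within days and 0.941 to 0.981 between days. Since the labels hold no batch, age and any batch aligned with it cannot be told apart.

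**Figure D1:**
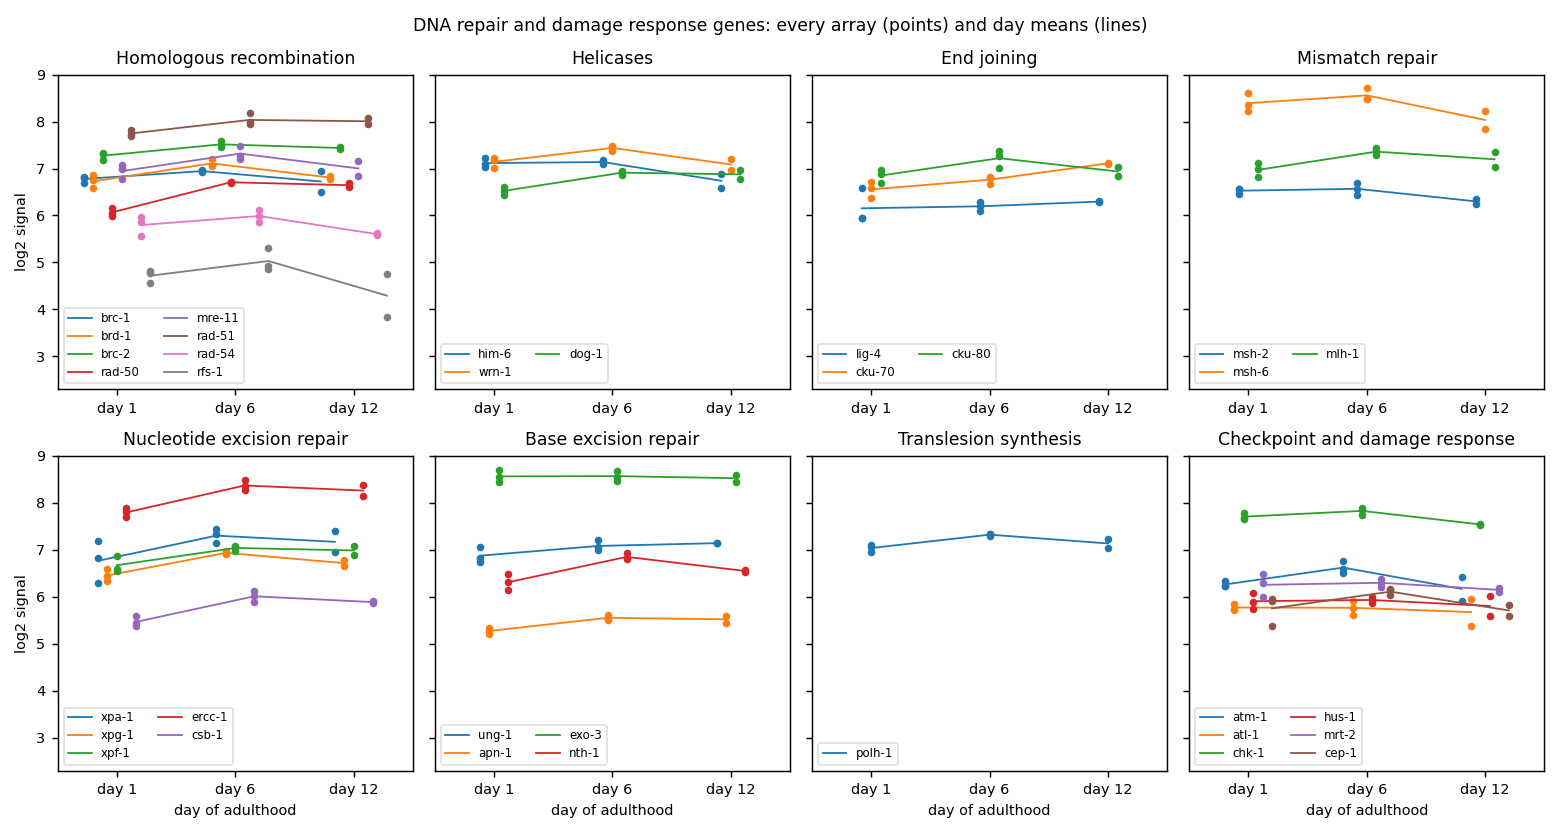
Log2 signal (vertical axis) of the 33 repair genes at day 1, day 6 and day 12 of adulthood, in panels by role, with a point for each array and lines through the day means. Lines run nearly flat in all 8 panels, most bend upward slightly at day 6, and the pair of day 12 points lies widest apart for rfs-1 (4.75 and 3.85).

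From day 1 to day 6 the repair genes lay slightly higher, and 2 of the 33 rose by the test: rad-50, which encodes the ATPase of the break-processing MRE11 complex, and ercc-1, which encodes the partner of the XPF-1 nuclease in nucleotide excision repair. No repair gene fell. Among all tested probes 2.18% were called higher and 1.66% lower, and among the 5708 probes within the brightness range of the repair genes 5.5% were called higher and 4.08% lower, so a share of 2 in 33 (6.06%) lies near the background. At an unadjusted p under 0.05, 12 of the 33 were higher and 0 lower, against 25.6% and 10.5% of probes in that range. The estimate was above 0 for 32 of the 33 genes, against 70% of probes of the same brightness range. All day 6 arrays lay above all day 1 arrays for 20 of the 33 genes (60.6%), against 35.1% of those probes. Related lists shared this: the share was 65.5% of 29 DNA replication genes and 56.4% of 55 other repair genes. Estimates above 0 made up 89.7% and 89.1% of those lists. The median difference over the 33 genes was 0.29, against 0.17 over probes of that brightness range and 0.02 over all tested probes.

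From day 1 to day 12 the calls were again 2, both higher: rad-50 and cku-70, which encodes the Ku70 subunit of the end-joining heterodimer. The background of this comparison was larger, with 9.58% of tested probes called higher and 4.52% lower, and 16.2% and 10.5% in the brightness range of the repair genes. At an unadjusted p under 0.05, 5 of the 33 were higher and 1 was lower, against 25.9% and 15.9% of probes in that range, so the count of higher genes does not exceed the background. Of the 33 genes, 19 had an estimate above 0 (background 59.3%) and 14 below, and the median difference of 0.09 lay beside 0.10 for probes of the same brightness range. Day 12 arrays lay wholly above day 1 arrays for 12 genes (36.4%, background 33.3%) and wholly below for him-6, msh-2 and chk-1 (9.09%, background 20.2%). This comparison and the one before it share the day 1 arrays.

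From day 6 to day 12 the repair genes lay slightly lower, and 0 of the 33 were called by limma on the brightest probe of each gene (a dimmer probe of atm-1 was called lower), where 6.36% of tested probes were called higher and 2.69% lower (8.25% and 6.89% in the brightness range of the repair genes). At an unadjusted p under 0.05, 1 was higher and 6 were lower, against 14% and 16.7% of probes in that range, so the lower count is near the background. The estimate was below 0 for 30 of the 33 genes and above 0 for 3, against 40.2% of probes in that range above 0. Without day 12 replicate 1 the count above 0 was 9, without day 12 replicate 2 it was 7, and under cyclic loess it was 6. The median difference was -0.16, against -0.08 over probes of the same brightness range. Day 12 arrays lay wholly below day 6 arrays for 16 genes (48.5%, background 33.1%) and wholly above for cku-70 alone (background 21.1%). The day 6 mean was the highest of the day means for 29 of the 33 genes, against 41.8% of probes in that range. The exceptions were lig-4, cku-70 and ung-1, highest at day 12, and atl-1, highest at day 1. Related lists shared these traits in part. Day 12 arrays lay wholly below day 6 arrays for 49.1% of 55 other repair genes and 24.1% of 29 DNA replication genes. That share was 61.1% of 18 germline markers and 80% of 15 oocyte and eggshell markers. The day 6 mean was highest for 67.3%, 51.7%, 72.2% and 80% of these lists, in the same order. A direct test of the second interval against the first called 0 of the 33 genes, where 2.22% of tested probes were called higher and 1.24% lower. At an unadjusted p under 0.05, 13 were lower and 0 higher, against 17% and 8.85% of probes in the brightness range. The counts of both intervals, the day 6 maximum and this test share the day 6 arrays, so they are not independent.

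The 95% intervals bound how far these transcripts moved. The interval lay within 1 log2 unit of no change for 32 of the 33 genes between day 1 and day 6, for 33 between day 1 and day 12 and for 32 between day 6 and day 12. The shares among probes of the same brightness range were 82.3%, 68.5% and 77.6%. The exceptions were xpa-1 in the first comparison (interval 0.04 to 1.04) and rfs-1 in the last (interval -1.30 to -0.17).

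**Figure D2:**
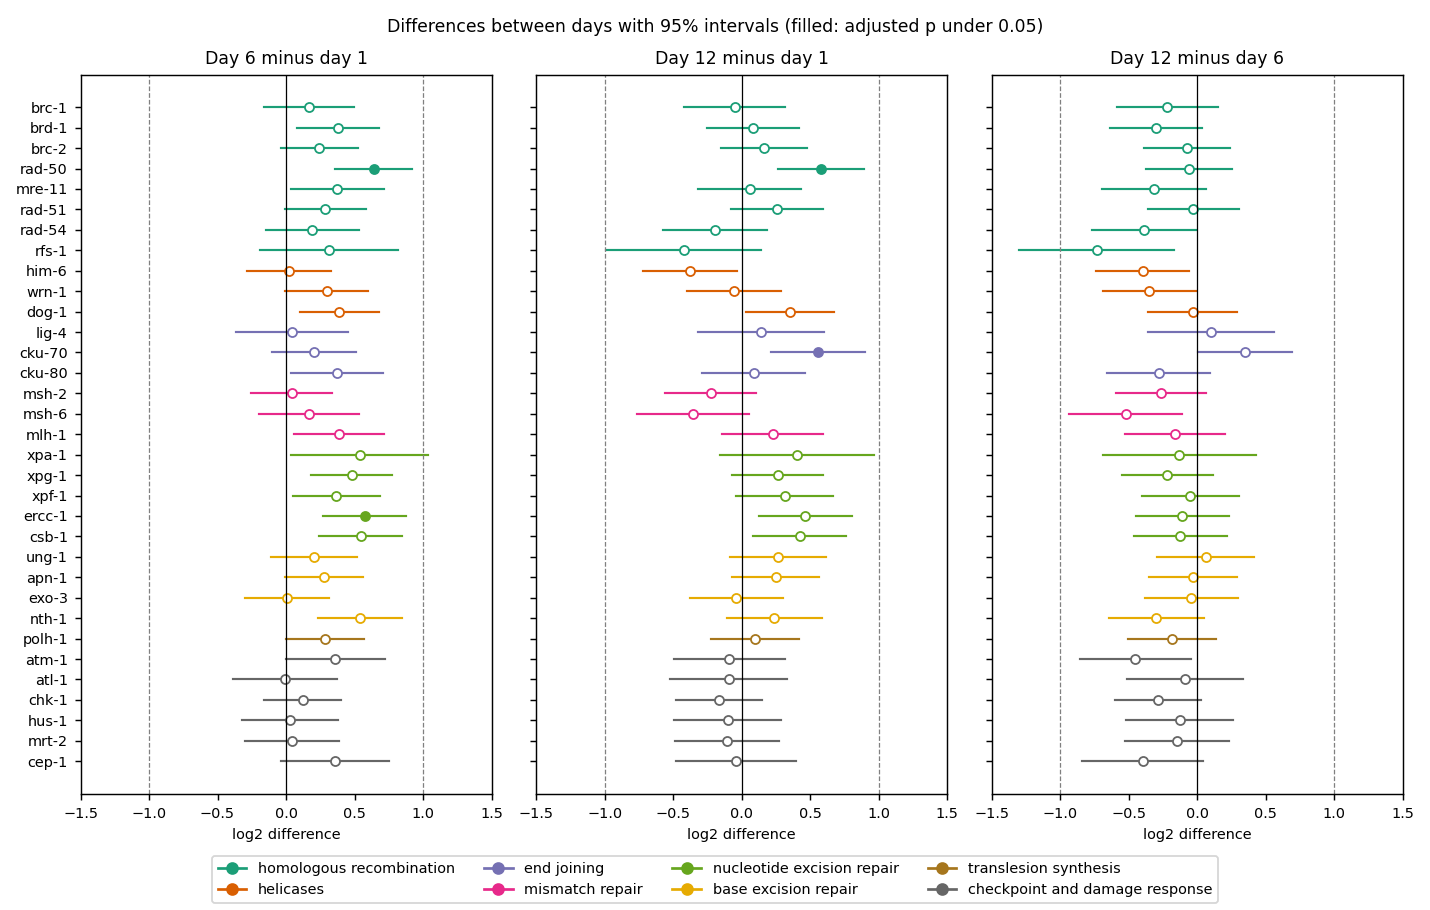
Log2 difference (horizontal axis) of each repair gene in the comparisons of day 6 with day 1, day 12 with day 1 and day 12 with day 6, with 95% intervals, coloured by role; filled points passed an adjusted p of 0.05 and dashed lines mark a difference of 1. Filled points are rad-50 and ercc-1 in the first panel, rad-50 and cku-70 in the second and none in the third.

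Homologous recombination was represented by 8 genes, with median differences of 0.30 between day 1 and day 6 and 0.07 between day 1 and day 12. For rad-50 (locus T04H1.4) the day 1 arrays read 6.16, 6.06 and 5.99, the day 6 arrays 6.71, 6.72 and 6.69, and the day 12 arrays 6.69 and 6.60. Every later array of rad-50 lay above every day 1 array, and the later days overlapped. The gene rose by 0.64 ± 0.13 to day 6, or 1.56-fold (adjusted p = 0.0233 by limma), and stood 0.58 ± 0.14 higher at day 12, or 1.49-fold (adjusted p = 0.0202). Both calls of rad-50 were lost under quantile normalization (adjusted p = 0.0854 at day 6 and 0.0794 at day 12) and under cyclic loess normalization (0.0948 and 0.0784). The day 6 call was also lost without day 1 replicate 2 or 3 or without any single day 6 array (adjusted p from 0.0617 to 0.0964). At day 12 the loss came on leaving out day 1 replicate 3 (adjusted p = 0.0541) or either day 12 array (0.108 for replicate 1 and 0.0693 for replicate 2).

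The partner of RAD-50 in the break-processing complex is the nuclease MRE-11. The mre-11 gene read 6.78, 7.07 and 6.99 at day 1, 7.48, 7.27 and 7.21 at day 6, and 7.15 and 6.85 at day 12. Its day 6 arrays lay above all the others, and it was not called. Its difference to day 6 was 0.37 ± 0.15 and to day 12 was 0.06 ± 0.17, beside 0.64 and 0.58 for rad-50; the difference between the partners was not tested.

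The strand-exchange recombinase gene rad-51 read 7.68, 7.83 and 7.73 at day 1, 8.18, 7.99 and 7.94 at day 6, and 7.94 and 8.07 at day 12. All later arrays lay above the day 1 arrays, yet neither difference was called (0.29 ± 0.13, adjusted p = 0.317, and 0.26 ± 0.15, adjusted p = 0.343, by limma). The 95% interval of the day 12 difference ran from -0.08 to 0.59. The gene of its loader brc-2, the BRCA2 homologue, differed by 0.24 ± 0.13 at day 6 and 0.17 ± 0.14 at day 12 from day 1.

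The BRCA1 and BARD1 homologues brc-1 and brd-1 encode a ubiquitin ligase that acts in recombination. The brd-1 gene read 6.73 ± 0.14, 7.11 ± 0.079 and 6.81 ± 0.057 at days 1, 6 and 12 (mean ± SD, n = 3, 3 and 2, here and below), and brc-1 read 6.78 ± 0.066, 6.95 ± 0.026 and 6.72 ± 0.32. Both were highest at day 6, and neither was called in any comparison. The RAD54-like translocase gene rad-54 differed by 0.19 ± 0.15 at day 6 and -0.20 ± 0.17 at day 12 from day 1.

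The RAD-51 paralogue gene rfs-1 was the least reproducible of the set at day 12. It read 4.82, 4.56 and 4.77 at day 1, 5.31, 4.93 and 4.85 at day 6, and 4.75 and 3.85 at day 12. The first day 12 array lay within the day 1 range and the second lay below all other arrays. The difference between day 12 and day 6 was -0.74 ± 0.25 (adjusted p = 0.121 by limma). With day 12 replicate 1 left out it was -1.19 (adjusted p = 0.016), and the difference from day 1 was -0.87 (adjusted p = 0.0473), so those calls rest on day 12 replicate 2 alone, with its spread assumed to be that of the other days. This gene is described in full because its values stood apart.

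The 3 helicase genes act on recombination intermediates and on unusual DNA structures. The BLM homologue him-6 read 7.12 ± 0.098 at day 1, 7.14 ± 0.033 at day 6 and 6.74 ± 0.20 at day 12. Its day 12 arrays lay below all others, with a difference from day 1 of -0.38 ± 0.15 that was not called (adjusted p = 0.155 by limma). The Werner syndrome homologue wrn-1 read 7.19, 7.01 and 7.23 at day 1, 7.46, 7.37 and 7.48 at day 6, and 7.20 and 6.97 at day 12. Its day 6 arrays lay above all the others without a call in any comparison (0.30 ± 0.14 to day 6, adjusted p = 0.312). For dog-1, whose product unwinds guanine-rich structures ahead of replication forks, the differences from day 1 were 0.39 ± 0.13 at day 6 and 0.35 ± 0.14 at day 12, with no overlap of arrays and no call (adjusted p = 0.151 and 0.159).

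End joining held the single gene called at day 12 and not at day 6. For cku-70 (locus Y47D3A.4) the day 1 arrays read 6.38, 6.58 and 6.71, the day 6 arrays 6.82, 6.80 and 6.67, and the day 12 arrays 7.12 and 7.10. The day 6 arrays overlapped the day 1 arrays, and the day 12 arrays lay above all the others. The gene stood 0.55 ± 0.15 higher at day 12 than at day 1, or 1.47-fold (adjusted p = 0.0376 by limma), with 0.21 ± 0.14 reached at day 6 (adjusted p = 0.524). A test of the second interval against the first gave 0.14 ± 0.25 (adjusted p = 0.854), so no difference of pace was shown. The call was lost under quantile and cyclic loess normalization (adjusted p = 0.0564 and 0.0543). It was also lost without day 1 replicate 1 or 2 (0.0955 and 0.0731), without any single day 6 array (0.0558 to 0.062) and without day 12 replicate 1 or 2 (0.146 and 0.137).

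Its heterodimer partner cku-80 read 6.69, 6.97 and 6.89 at day 1, 7.26, 7.38 and 7.02 at day 6, and 7.03 and 6.84 at day 12. The difference from day 1 was 0.37 ± 0.15 at day 6 and 0.09 ± 0.17 at day 12, neither called (adjusted p = 0.246 and 0.822 by limma). At day 12 the estimate for cku-70 was 0.55 and that for cku-80 was 0.09, with overlapping 95% intervals of 0.21 to 0.90 and -0.29 to 0.46. The DNA ligase IV gene lig-4, which seals the joined ends, differed by 0.04 ± 0.18 at day 6 and 0.14 ± 0.21 at day 12 from day 1, and its day 1 arrays ranged from 5.94 to 6.58.

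Of the mismatch repair genes, msh-2 and msh-6 encode the heterodimer that recognises mismatches and mlh-1 the protein it recruits, and none of the 3 was called. The msh-6 gene read 8.34, 8.61 and 8.22 at day 1, 8.48, 8.70 and 8.49 at day 6, and 8.23 and 7.83 at day 12. Its day 12 arrays lay below the day 6 arrays, with a difference of -0.52 ± 0.18 (adjusted p = 0.128 by limma). For msh-2 the same difference was -0.27 ± 0.15, with the day 12 arrays at 6.35 and 6.25 below every other array. The mlh-1 gene stood at 6.97 ± 0.15, 7.36 ± 0.074 and 7.20 ± 0.23 at days 1, 6 and 12, above its day 1 level on all day 6 arrays.

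Nucleotide excision repair was the role with the highest median difference from day 1, at 0.54 on day 6 and 0.40 on day 12 over 5 genes. Each had an estimate above 0 at both ages, and both medians are the value of xpa-1. The 13 other excision repair genes had medians of 0.25 and 0.16, with 0 called at either age against day 1. With ercc-1 (locus F10G8.7) the day 1 arrays read 7.70, 7.80 and 7.88, the day 6 arrays 8.48, 8.36 and 8.26, and the day 12 arrays 8.15 and 8.37. All later arrays lay above the day 1 arrays. The gene rose by 0.57 ± 0.14 to day 6, or 1.49-fold (adjusted p = 0.0489 by limma). The difference at day 12 was 0.46 ± 0.15 (adjusted p = 0.0772). The day 6 call was lost under quantile and cyclic loess normalization (adjusted p = 0.0796 and 0.0958) and in each of the 8 fits with an array left out (0.0563 to 0.195).

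The nuclease subunit XPF-1, which cuts on one side of a lesion together with ERCC-1, had transcripts at 6.67 ± 0.18, 7.04 ± 0.05 and 6.98 ± 0.13, with differences from day 1 of 0.37 ± 0.14 at day 6 and 0.31 ± 0.16 at day 12. The xpg-1 gene, for the nuclease that cuts on the other side, differed by 0.48 ± 0.13 at day 6 (adjusted p = 0.0827) and 0.26 ± 0.15 at day 12. The csb-1 gene, for the factor that starts repair at stalled RNA polymerase, read 5.37, 5.59 and 5.43 at day 1, 6.13, 5.88 and 6.02 at day 6, and 5.91 and 5.86 at day 12. Its arrays did not overlap between day 1 and the later days, with differences of 0.55 ± 0.14 (adjusted p = 0.0575 by limma) and 0.42 ± 0.15 (adjusted p = 0.104). The damage-recognition gene xpa-1 had the widest spread of the set at day 1, with arrays at 6.29, 7.18 and 6.82, and a difference at day 6 of 0.54 ± 0.23 (adjusted p = 0.261).

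Base excision repair begins with glycosylases, here ung-1 and nth-1, and continues with the endonucleases apn-1 and exo-3 that cut at the site left without a base. The nth-1 gene read 6.14, 6.30 and 6.48 at day 1, 6.81, 6.93 and 6.79 at day 6, and 6.52 and 6.57 at day 12. Its day 6 arrays lay above all the others, with a difference from day 1 of 0.54 ± 0.14 that missed the threshold (adjusted p = 0.0645 by limma) and 0.24 ± 0.15 at day 12. The exo-3 gene was the flattest of the set, reading 8.70, 8.54 and 8.45 at day 1, 8.55, 8.67 and 8.47 at day 6, and 8.44 and 8.60 at day 12. Its arrays overlapped between all days, and its 95% interval for day 12 against day 1 ran from -0.38 to 0.30. For ung-1 the differences from day 1 were 0.21 ± 0.14 and 0.27 ± 0.16, and for apn-1 they were 0.28 ± 0.13 and 0.25 ± 0.14, at days 6 and 12.

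The translesion polymerase gene polh-1, whose product copies past ultraviolet damage, read 6.95, 7.06 and 7.09 at day 1, 7.28, 7.33 and 7.34 at day 6, and 7.23 and 7.04 at day 12. The day 6 arrays lay above those of day 1, and the difference of 0.28 ± 0.13 was not called (adjusted p = 0.301 by limma).

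The 6 checkpoint and damage response genes had the smallest median difference of the roles from day 1 to day 6, at 0.08. All 6 had estimates below 0 at day 12 (median -0.10 from day 1, -0.22 from day 6). Of probes in the brightness range, 59.3% were above 0 at day 12 against day 1 and 40.2% against day 6. Against day 1 only chk-1 stayed below 0 in every alternative fit. Of 9 other checkpoint and apoptosis genes, 5 were above 0 and 4 below against day 1, and 3 and 6 against day 6. The checkpoint kinase gene chk-1 read 7.68, 7.65 and 7.78 at day 1, 7.85, 7.88 and 7.74 at day 6, and 7.55 and 7.52 at day 12. Its day 12 arrays lay below all the others by a small margin, and the difference from day 6 was -0.29 ± 0.14 (adjusted p = 0.301 by limma). The ATR homologue atl-1 differed by -0.01 ± 0.17 at day 6 and -0.10 ± 0.19 at day 12 from day 1. Among the clamp genes that load at damaged DNA, hus-1 differed by 0.03 ± 0.16 and -0.10 ± 0.18 and mrt-2 by 0.04 ± 0.15 and -0.11 ± 0.17.

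The kinase gene atm-1 was the only member with several probes. Its brightest probe read 6.26 ± 0.07 at day 1, 6.62 ± 0.14 at day 6 and 6.17 ± 0.37 at day 12, and all 3 probes had their highest mean at day 6 and their lowest at day 12. Between day 6 and day 12 the 3 probes moved alike, with day 12 arrays below the day 6 arrays for each, and only the call differed. The brightest differed by -0.45 ± 0.18 (adjusted p = 0.191 by limma), the next by -0.72 ± 0.18 (adjusted p = 0.0298, a call) and the dimmest by -0.48 ± 0.15 (adjusted p = 0.0812). The next probe read 5.24, 5.55 and 5.74 at day 1, 5.86, 6.02 and 6.02 at day 6, and 5.33 and 5.17 at day 12. Its day 12 arrays lay below the day 6 arrays and overlapped those of day 1. The p53-like gene cep-1, which drives germ cell apoptosis after damage, stood at 5.75 ± 0.32, 6.11 ± 0.072 and 5.71 ± 0.18 and was not called.

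Of 55 other genes of the same pathways, all with a probe, 3 rose and 0 fell from day 1 to day 6, 5 rose and 1 fell from day 1 to day 12, and 3 rose and 2 fell from day 6 to day 12. The shares called higher were 5.45%, 9.09% and 5.45%, against 2.18%, 9.58% and 6.36% of all tested probes and 5.5%, 16.2% and 8.25% in the brightness range of the 33 genes. The shares called lower were 0%, 1.82% and 3.64%, and none of the shares exceeds the background of that brightness range. That range was set by the 33 genes and matches the 55 only in part, since 51 of the 55 exceeded the dim level. The medians were 0.25, 0.13 and -0.17, close to those of the 33 genes. The largest change was in parg-2, which encodes a poly(ADP-ribose) glycohydrolase, an enzyme that removes the polymer made at DNA breaks. It read 1.87, 1.90 and 2.20 at day 1, 3.43, 3.40 and 2.59 at day 6, and 5.44 and 5.55 at day 12. No arrays of the 3 days overlapped. The day 12 level stood 3.50 ± 0.25 above day 1 (adjusted p = 1.12e-05 by limma) and 2.35 ± 0.25 above day 6 (adjusted p = 0.000214), and both calls held in all 18 alternative fits. Since day 1 was dim, the size of the difference from day 1 is uncertain. The rise to day 6 was 1.15 ± 0.22 (adjusted p = 0.021), likewise uncertain in size, with 1 day 6 array below the dim level too. Its call was lost without day 1 replicate 1 or 2 or day 6 replicate 1 or 2 (0.0664 to 0.0968).

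The poly(ADP-ribose) polymerase gene parp-2 read 7.35, 7.21 and 7.65 at day 1, 7.77, 8.03 and 8.05 at day 6, and 8.25 and 8.50 at day 12. Arrays of successive days did not overlap, and the day 12 level was 0.97 ± 0.18 above day 1, or 1.96-fold (adjusted p = 0.00476 by limma), a call lost without day 12 replicate 2 (0.0568). The polymerase theta gene polq-1, of microhomology-mediated end joining, read 5.20, 5.33 and 5.08, then 6.02, 6.09 and 6.19, then 5.75 and 5.29. It rose by 0.89 ± 0.16 to day 6 (adjusted p = 0.014), a call lost without day 6 replicate 1 or 3 (0.0531 and 0.0587). Its change in the second interval differed from that in the first by -1.47 ± 0.28 (adjusted p = 0.0191), which was lost without any single day 6 array or day 12 replicate 2 (0.059 to 0.0937) and with a replicate block (0.0502).

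The meiotic MutS homologue gene msh-5, which acts in crossing over, read 5.47, 5.30 and 5.71 at day 1, 6.08, 5.76 and 6.04 at day 6, and 5.17 and 4.88 at day 12. It fell by 0.93 ± 0.18 from day 6 to day 12 (adjusted p = 0.009 by limma), with day 12 arrays below all others, and the call was lost without day 12 replicate 2 (0.101). Its second interval differed from the first by -1.40 ± 0.30 (adjusted p = 0.0305), which was lost without day 1 replicate 1 or 2, day 6 replicate 1 or 3 or day 12 replicate 2 (0.0524 to 0.139). Other genes called were sws-1 (1.01 ± 0.19 at day 6 and 0.82 ± 0.21 at day 12 from day 1) and, at day 12 against day 1, fncm-1 (0.76 ± 0.19), egl-1 (0.78 ± 0.19) and rpa-4 (-0.59 ± 0.16). Between day 6 and day 12 the others called were xpd-1 (0.67 ± 0.17), egl-1 (0.70 ± 0.19) and the checkpoint clamp gene hpr-9 (-0.58 ± 0.14). Each of these calls was lost in at least 3 of the 8 fits with an array left out, egl-1 and xpd-1 were dim at day 1 and day 6, and the pair of probes of rpa-4 disagreed, with a mean difference of -0.05.

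**Figure D3:**
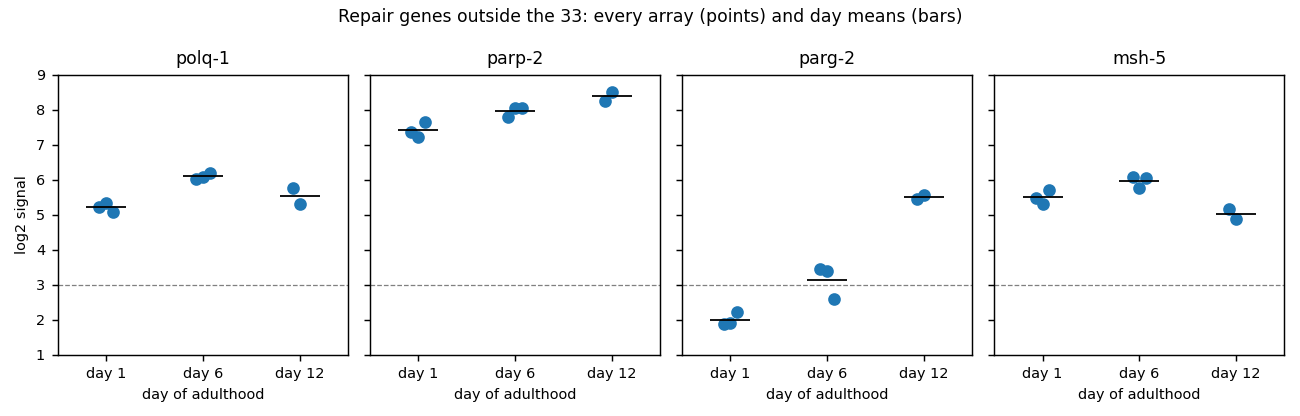
Log2 signal (vertical axis) of polq-1, parp-2, parg-2 and msh-5 at day 1, day 6 and day 12, with a point for each array, bars at the day means and a dashed line at the dim level of 3. The parg-2 arrays lie between 1.87 and 2.20 at day 1 and at 5.44 and 5.55 at day 12, while polq-1 and msh-5 are highest at day 6.

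DNA replication genes, which are the nearest pathway in function, were compared by counts and medians. Of 29 measured, 0 were called between day 1 and day 6, 3 rose by day 12 (cdt-1, pri-2 and tyms-1; 10.3%, beside 9.58% of all tested probes and 16.2% in the brightness range of the repair genes) and 0 were called between day 6 and day 12. Their median difference was 0.23 at day 6 and 0.24 at day 12 from day 1, beside 0.29 and 0.09 for the repair genes. The difference between the lists was not tested. The brightness range was set by the repair genes and matches the replication genes only in part. Array medians ran from 7.87 to 8.41 for the replication genes and from 6.54 to 6.97 for the repair genes.

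Markers of other tissues moved over the same ages. Summed over 18 germline markers, the log2 signal was 12.73 to 12.79 on day 1 arrays, 12.86 to 12.92 at day 6 and 12.48 to 12.76 at day 12. For 15 oocyte and eggshell markers it was 14.03 to 14.16, 14.25 to 14.27 and 13.85 to 14.06. In both lists most members were highest at day 6, 13 of 18 and 12 of 15, as were 29 of the 33 repair genes. Summed embryo markers were 9.37 to 9.55 at day 1 and 10.18 to 10.25 at day 12. Of the 14, 7 were called higher at day 12 against day 1, where 9.58% of all tested probes were. Of these 14 markers, 8 were dim at day 1 and 4 at day 12. Of 10 sperm markers, 8 were dim at day 1, 9 at day 6 and 5 at day 12. Muscle markers summed to 12.47 to 12.85 at day 1 and 9.09 to 9.29 at day 12, and intestine markers to 12.29 to 12.47 and 10.80 to 10.87. The part of these shifts in the repair gene values was not tested.

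On single arrays, the median repair gene lay 0.32, 0.27 and 0.22 above its day 1 mean at day 6, and 0.18 and 0.04 above it at day 12. Germline markers lay 0.23, 0.27 and 0.18 above at day 6, and 0.09 above and -0.15 at day 12. The second day 12 array was the lower of the pair for both lists and for oocyte and eggshell markers (-0.09 and -0.45). Replication genes did not share that order, with 0.21 and 0.25. Probes in the brightness range of the repair genes lay 0.21, 0.15 and 0.15 above at day 6, and 0.13 and 0.09 above at day 12. The repair genes thus lay above these probes on every day 6 array and below them on day 12 replicate 2.

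**Figure D4:**
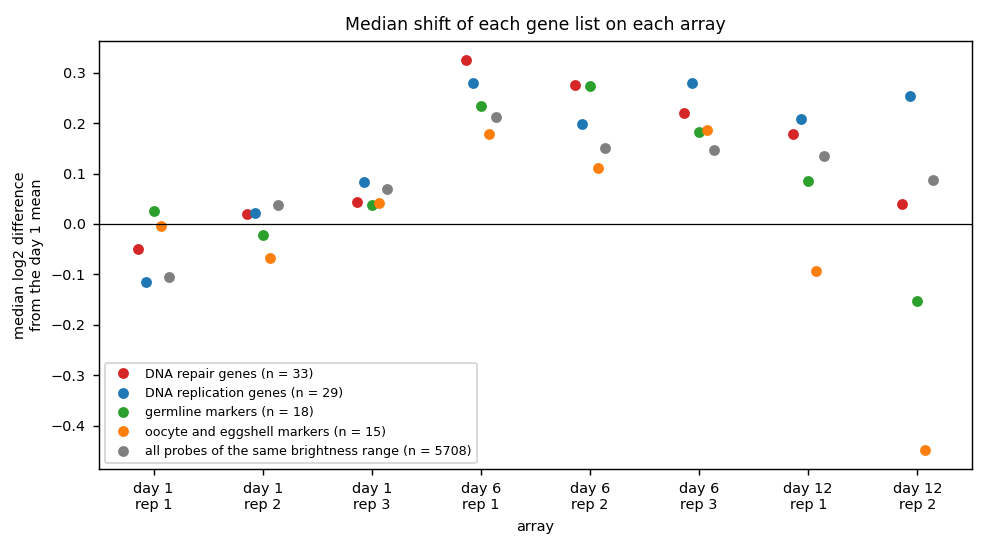
Median log2 difference from the day 1 mean (vertical axis) on each of the 8 arrays for the repair genes, replication genes, germline markers, oocyte and eggshell markers and all probes in the brightness range of the repair genes. All lists lie above 0 on the day 6 arrays, and on day 12 replicate 2 the oocyte and eggshell markers reach -0.45 while the repair genes lie at 0.04.

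The position of the repair genes depended on how the arrays were scaled. Quantile normalization lowered the day 6 median from 0.29 to 0.19 and the count of estimates above 0 from 32 to 26 of 33, and cyclic loess lowered them to 0.15 and 25. The median of probes in the same brightness range moved alike, from 0.17 to 0.07 and 0.03, so the repair genes lay 0.12 above them as deposited and under both normalizations. Median centring moves all probes of an array alike and cannot change that gap. At day 12 against day 1 the median turned from 0.087 to -0.014 and -0.0048 under the same normalizations. Under both of them 0 of the 33 genes were called at day 6 and at day 12.

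**Figure D5:**
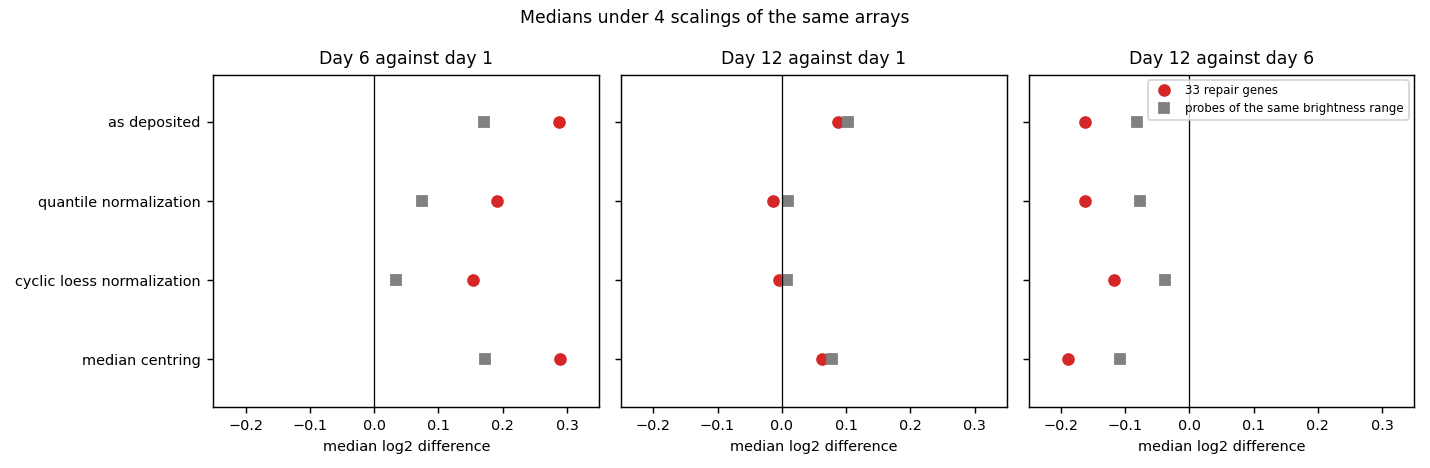
Median log2 difference (horizontal axis) of the 33 repair genes (circles) and of probes in the same brightness range (squares) under 4 scalings (vertical axis), in the 3 comparisons of days. The circles lie 0.12 to the right of the squares at day 6 against day 1, where median centring cannot change the gap, and near 0 at day 12 against day 1.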

How the data were processed

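RNA from whole worm populations was run on Affymetrix arrays, 1 array per sample, per the labels' protocols. The deposited table holds 29317 probes by 8 arrays, and its values (0.68 to 13.23) were taken as log2 signal from their range. Log base, normalization and software: not given in the sources used here. Gene symbols were those of the platform annotation, with 1 symbol for 26281 probes, several for 480 and none for 2556. Day means were estimated in limma 3.58.1 (R 4.3.3) over the 8 arrays, leaving 5 residual degrees of freedom and 5.07 from the prior, with Benjamini-Hochberg adjustment of two-sided p-values across the 26761 probes that had a symbol. The brightest probe stood for a gene. Array values are printed for called genes and the brightest gene of each role; rfs-1, csb-1, nth-1, xpa-1 and a second atm-1 probe, and the arrays of mre-11, were added after their values were seen. Among the other repair genes, at most 8 called per comparison were named. Genes and lists were chosen with earlier results of these data known. The number of arrays limits the precision. The procedure was tested on simulated data. Alternatives covered scaling, variance model, probe filters, probe summary, a replicate block and each array left out.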

Additional observations from a re-analysis of the deposited data

How the results depend on the processing

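Of the 33 repair genes, 2 were called between day 1 and day 6 and 2 between day 1 and day 12. Quantile normalization and cyclic loess gave 0 at both ages, the arrays of the 2 days alone gave 1 and 0, all probes gave 1 at day 6 and array weights gave 1 at day 12. A filter on probes with a mean of at least 3 gave 5 (adding csb-1, nth-1 and xpg-1) and 4 (adding csb-1 and ercc-1), from fewer probes tested. Leaving out 1 array at a time gave 0 to 1 calls in each comparison, against 0 between day 6 and day 12 and 0 for the second interval against the first. The 1 call in those last comparisons was rfs-1 without day 12 replicate 1. The median difference at day 6 was 0.19 with quantile and 0.15 with cyclic loess normalization, and at day 12 it turned from 0.087 to -0.014 and -0.0048. With an array left out the day 12 median ran from 0.036 to 0.18 (the latter without day 12 replicate 2), and the median between day 6 and day 12 from -0.28 (without day 12 replicate 1) to -0.16. The cause of these shifts was not tested.

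With the replicate block 0 repair genes were called at day 6 and 0 at day 12. Deviations of same-numbered samples correlated at -0.23 to 0.25 and those of other pairs at -0.25 to 0.23. The 2 day 12 arrays deviate from their mean by equal and opposite amounts, so these ranges mirror each other by construction. These ranges therefore cannot show whether the numbers pair the samples. Between day 1 and day 6, where no day 12 array enters, same-numbered samples correlated at -0.20 to -0.04 and other pairs at -0.09 to 0.14. No positive correlation of same-numbered samples was seen there, although these values are also tied, since deviations are taken from the day mean. Precision is limited by 8 arrays, with 2 at day 12, and by an unstated normalization. Detection calls were not used here.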
